A study of Mus musculus with 6 samples.

Results

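The genes examined here were 10 ligands of the tumour necrosis factor (TNF) superfamily: Tnf, Ltb, Tnfsf8, Tnfsf9, Tnfsf10, Tnfsf12, Tnfsf13, Tnfsf13b, Tnfsf14 and Tnfsf15. They were the rows of the count table with those symbols, 10 of 55453 genes. RNA-Seq had been performed on bone marrow-derived macrophages (BMDM), which are grown from mouse bone marrow progenitors, with 3 PP2Ac-KO and 3 wild-type (WT) libraries. Both groups were C57BL/6, and the labels name the genotypes PP2A KO and Wild Type. Per the study the PP2Ac-KO cells came from LysM-cre PP2Ac fl/fl mice and the WT cells from purchased C57BL/6 mice. In the former, Cre driven by the promoter of the myeloid gene Lyz2 removes an exon of Ppp2ca. Ppp2ca is the gene of the catalytic subunit PP2Ac of protein phosphatase 2A. The study describes RNA-Seq of PP2Ac-KO and WT BMDM that were both treated with cGAMP, a cyclic dinucleotide that activates STING. The labels state no treatment, age or sex, so stimulation is taken as shared by both groups and could not be checked, and nothing at hand says that the WT mice were Cre-positive or littermates. The study's methods state that cell experiments were done in biological triplicate unless said otherwise. The labels do not say whether the replicates came from separate animals or cultures, so the p-values measure the spread between these libraries.

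TNF superfamily ligands are mostly type II membrane proteins that assemble as trimers and act on neighbouring cells through receptors of the TNF receptor superfamily. Several are cut from the cell surface by proteases and act as soluble cytokines, and macrophages are a main source of TNF itself. The receptors signal to NF-κB and MAP kinases, and those that carry a death domain can also trigger apoptosis.

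Of the 10 ligands, 5 rose in PP2Ac-KO BMDM: Tnfsf10, Tnf, Tnfsf9, Tnfsf8 and Tnfsf15, by 2.11-fold to 3.35-fold over WT. Tnfsf12 fell to 0.838 of its WT level, and Tnfsf13, Tnfsf13b and Tnfsf14 did not pass the test. Ltb had too few counts to enter the test. Counts were compared by edgeR's quasi-likelihood test with genotype as the only term, and p-values were adjusted by the Benjamini-Hochberg method over 13680 genes, with a gene called at an adjusted p under 0.05. By that rule 5 of the 9 tested ligands were higher, whereas 18.1% of all genes tested were higher, and 1 of 9 was lower, whereas 19.0% of all genes were lower. All 5 higher ligands also exceeded a log2 fold change of 1 at an adjusted p under 0.01, a rule that 3.36% of all genes met as higher. The median log2 fold change was 1.08 over the 9 tested ligands and -0.02 over all genes tested. Every tested ligand had at least 42 counts in every library, so none passed the filter on low counts only through the group in which it was high.

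Libraries held 35257156 to 47390899 counts. Ppp2ca had 47, 33 and 38 counts in PP2Ac-KO replicates 1, 2 and 3, against 10654, 8913 and 8279 in WT (log2 fold change -7.67, SE 0.10, edgeR adjusted p = 3.17e-10). All 10 macrophage markers exceeded 3 counts in at least 1 library, as did all 6 B cell, 8 fibroblast and 5 endothelial markers. At most 3 counts in every library were seen for 4 of 7 T cell, 4 of 5 natural killer cell and 4 of 8 neutrophil markers. The same held for 1 of 6 dendritic cell and 3 of 6 mast cell and basophil markers. Of the T cell markers, Cd28 had 1481 to 2184 counts in PP2Ac-KO and 2404 to 2988 in WT (log2 fold change -0.30, edgeR adjusted p = 0.0105). Lck, with 24 to 60 counts, was higher in PP2Ac-KO (log2 fold change 0.90, edgeR adjusted p = 0.0112). The 8 fibroblast markers together reached 25.0 to 37.6 CPM (counts divided by library size scaled with TMM factors) in PP2Ac-KO and 81.1 to 125.1 in WT, and the 6 dendritic cell markers 2.18 to 3.16 and 1.24 to 2.05. The 6 B cell markers together reached only 1.815 to 2.372 CPM in PP2Ac-KO and 1.816 to 2.099 in WT. The 5 endothelial markers together reached 240.5 to 311.7 CPM in PP2Ac-KO and 163.6 to 226.5 in WT, and the 10 macrophage markers 11870 to 12010 and 9577 to 10210, so both sums were higher in every PP2Ac-KO library, as the 5 higher ligands were. Of the 10 macrophage markers, 4 were called higher and 6 were not called, beside 18.1% higher among all genes tested. Csf1r, Fcgr1, Mertk, C1qa and C1qb were higher in every PP2Ac-KO library, whereas Adgre1, Cd68, Itgam, Cd14 and Lyz2 overlapped between the groups. The endothelial markers did not move together. Kdr (182.5 to 229.6 CPM in PP2Ac-KO, 76.5 to 125.0 in WT) and Cdh5 were higher. Vwf was lower (48.4 to 69.2 CPM in PP2Ac-KO, 83.4 to 99.3 in WT), and Tek and Emcn had at most 6 counts in any library. The part of these other cell types in the levels of the ligands, or of the receptor, shedding and neighbouring genes given below, was not tested. In such bulk libraries a change in the share of a cell type and a change in RNA per cell cannot be told apart.

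The sequence just before the start of 3 ligand genes is shown: Tnf and Tnfsf10 as the ligands with the highest levels, and Ltb as the neighbour of Tnf and the member whose window held an NF-κB consensus. The windows are the RefSeq promoters (GRCm38.p6), 250 bases before the start, printed 5′ to 3′ on the gene's strand and only as far as the first transcribed base annotated by GENCODE M21. They are Tnf at chr17:35202008-35202257 (minus strand), Ltb at chr17:35194257-35194438 (plus strand) and Tnfsf10 at chr3:27316827-27317027 (plus strand). The Ltb and Tnfsf10 stretches therefore stop before the RefSeq start, from which the positions of matches are counted. Capitals mark motif matches.
Tnf: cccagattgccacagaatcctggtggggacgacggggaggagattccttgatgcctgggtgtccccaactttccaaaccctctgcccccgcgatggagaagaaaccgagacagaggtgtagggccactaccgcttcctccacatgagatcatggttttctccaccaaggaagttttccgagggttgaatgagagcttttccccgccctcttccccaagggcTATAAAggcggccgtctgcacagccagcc
Ltb: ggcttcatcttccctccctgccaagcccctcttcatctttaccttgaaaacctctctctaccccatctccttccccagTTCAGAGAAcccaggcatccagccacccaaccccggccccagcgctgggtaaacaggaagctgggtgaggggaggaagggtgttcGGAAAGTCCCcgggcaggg
Tnfsf10: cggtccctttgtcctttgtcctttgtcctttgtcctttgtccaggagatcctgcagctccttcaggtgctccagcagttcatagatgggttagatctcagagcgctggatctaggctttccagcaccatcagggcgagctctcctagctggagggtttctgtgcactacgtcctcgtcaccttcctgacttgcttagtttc
The motifs searched on both strands were the NF-κB consensus, the interferon-stimulated response element core GAAANNGAAA, the AP-1 site TGANTCA, the interferon-gamma-activated site TTCNNNGAA and the TATA box TATAAA. They were chosen after the values were seen, and no 2 matches overlapped in the members. Tnf held the TATA box, 29 to 24 bases before its start, a motif found in 12.4% of 32851 RefSeq windows. Ltb held an interferon-gamma-activated site at 172 to 164 bases (7.02% of windows) and an NF-κB consensus on the opposite strand at 87 to 78 bases (3.90% of windows). No motif matched in the windows of Tnfsf10, Tnfsf8 and Tnfsf15, which says only that these letters are not there. AP-1 sites (6.75% of windows) lay in the windows of Tnfsf13, Tnfsf13b and Tnfsf14, and 1 of the 2 Tnfsf13b windows also held the GAAANNGAAA core (2.98% of windows). The matches of Tnfsf13 and Tnfsf13b lay past the first transcribed base annotated by GENCODE M21, so inside the annotated genes. In all, 8 of the 10 ligands had windows in the RefSeq table, and Tnfsf9 and Tnfsf12 did not.

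Tnf encodes the inflammatory cytokine TNF, which signals through Tnfrsf1a and Tnfrsf1b. Its level was 254.8, 202.0 and 229.4 CPM in PP2Ac-KO (replicates 1, 2 and 3, 228.8 ± 26.4, SD, n = 3) and 82.8, 64.2 and 78.5 CPM in WT (75.2 ± 9.70, n = 3). The lowest PP2Ac-KO library lay far above the highest WT library, and both groups were tight. The log2 fold change was 1.61 (SE 0.11), that is 3.04-fold higher, with an edgeR adjusted p of 5.4e-05. The counts behind it were deep, 6670 to 10810 reads in PP2Ac-KO and 2794 to 4112 in WT.

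Tnfsf10 encodes TRAIL, a ligand that can induce apoptosis through death receptors and whose transcription is known to respond to interferons. It had the highest counts of the 10 ligands, 24193, 16322 and 19161 in PP2Ac-KO and 11007, 5808 and 4177 in WT. As CPM these were 570.3, 494.4 and 459.2 in PP2Ac-KO (508.0 ± 56.8, n = 3) and 221.6, 133.5 and 99.6 in WT (151.6 ± 62.9, n = 3). The groups did not overlap, but the WT libraries were far apart from each other, with a coefficient of variation (SD over mean) of 41.5%, as against 11.2% in PP2Ac-KO. The log2 fold change was 1.74 (SE 0.25), 3.35-fold, with an edgeR adjusted p of 0.00067. With WT replicate 1 left out it was 2.12, and with WT replicate 3 left out 1.52. Both remained under an adjusted p of 0.05.

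Tnfsf9, Tnfsf8 and Tnfsf15 are ligands known for costimulating T cells. Tnfsf9, the ligand of the receptor Tnfrsf9, had 480, 302 and 375 counts in PP2Ac-KO and 153, 152 and 130 in WT. Its level was 9.82 ± 1.30 CPM in PP2Ac-KO and 3.23 ± 0.234 CPM in WT (SD, n = 3 each). The groups were clearly separate, with the most even WT libraries of the 5 higher ligands (coefficient of variation 7.25%). The log2 fold change was 1.61 (SE 0.12), 3.05-fold, with an edgeR adjusted p of 5.65e-05. An antisense non-coding gene, Gm11110, overlaps 192 of the 1290 exonic bases of Tnfsf9 (14.9%). Gm11110 had 33 to 58 counts in these libraries, and its log2 fold change was 0.45 (SE 0.21, edgeR adjusted p = 0.121). Whether counting used strand is not stated in the sources used here.

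Tnfsf8, the ligand of the receptor Tnfrsf8 (CD30), had 498, 339 and 316 counts in PP2Ac-KO and 253, 129 and 150 in WT. Its level was 9.86 ± 2.11 CPM in PP2Ac-KO and 3.88 ± 1.10 CPM in WT. Replicate 1 was the highest library in each group, and the lowest PP2Ac-KO library at 7.57 CPM stood above the highest WT library at 5.09 CPM. The log2 fold change was 1.34 (SE 0.21), with an edgeR adjusted p of 0.00124.

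Tnfsf15, or TL1A, the ligand of Tnfrsf25, had 1908, 1138 and 1333 counts in PP2Ac-KO and 1127, 700 and 579 in WT. Its level was 44.98, 34.5 and 31.9 CPM in PP2Ac-KO (37.1 ± 6.91, n = 3) and 22.7, 16.1 and 13.8 CPM in WT (17.5 ± 4.61, n = 3). Here too replicate 1 was the highest in each group, and the groups did not overlap. The log2 fold change was 1.08 (SE 0.18), 2.11-fold, with an edgeR adjusted p of 0.00166. It was the smallest change of the 5, and it fell below a log2 fold change of 1 without PP2Ac-KO replicate 1 (0.91) or WT replicate 3 (0.94), with adjusted p-values of 0.00706 and 0.00226.

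**Figure D1:**
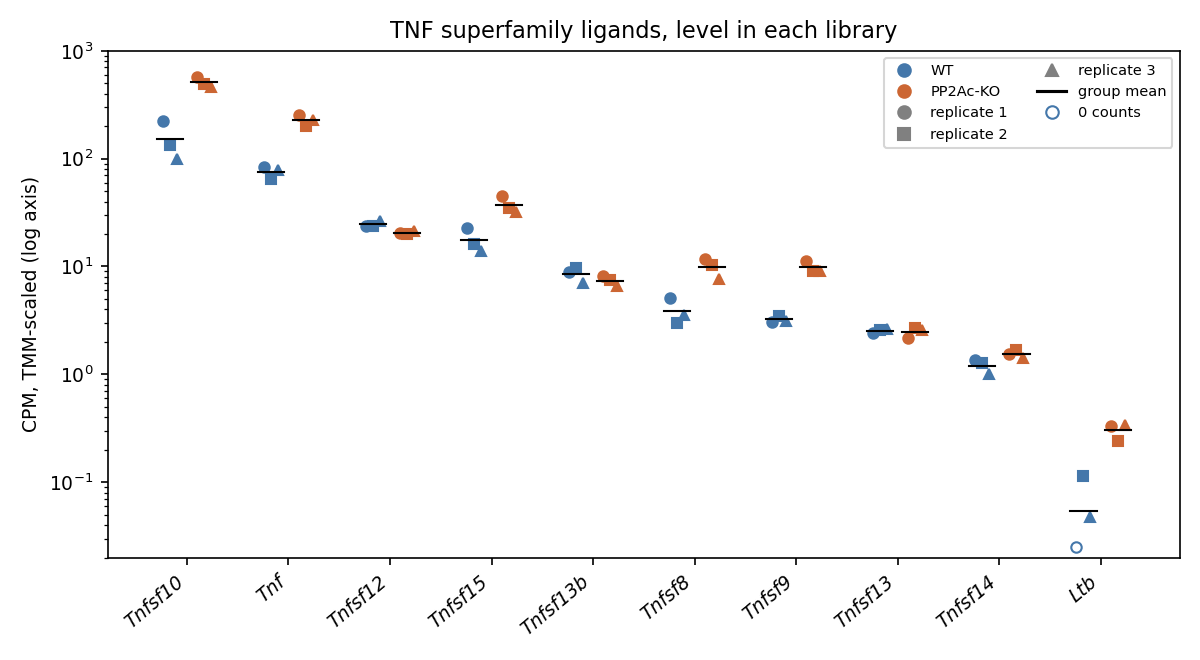
Level of each ligand in each library, as TMM-scaled CPM on a log axis, with WT in blue, PP2Ac-KO in orange, 1 symbol per replicate number and a bar at the group mean. Tnfsf10, Tnf, Tnfsf15, Tnfsf8, Tnfsf9 and, by a narrow margin, Tnfsf14 are higher in every PP2Ac-KO library than in any WT library. Tnfsf14 did not pass the test. Tnfsf12 is lower in each PP2Ac-KO library. Ltb is also higher in each PP2Ac-KO library but lies near the floor, with 0 counts in 1 WT library drawn as an open circle.

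Ltb encodes lymphotoxin beta, which forms a membrane heterotrimer with lymphotoxin alpha. It had 14, 8 and 14 counts in PP2Ac-KO and 0, 5 and 2 in WT, 36 against 7 in all. Each PP2Ac-KO library was above each WT library, yet 3 counts equal 0.0604 to 0.0909 CPM at these depths and the WT mean was 0.0542 CPM, so its level in WT was at the limit of detection. The gene did not pass the filter. In a fit without a filter its log2 fold change was 2.48 (SE 0.64, edgeR adjusted p = 0.00186), a value that rests on 36 against 7 counts.

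Tnfsf12 was the only ligand of the set that fell. It encodes TWEAK, which acts through the receptor Fn14, the product of Tnfrsf12a. Its level was 20.4, 20.1 and 21.2 CPM in PP2Ac-KO (20.6 ± 0.548, n = 3) and 23.7, 23.7 and 26.3 CPM in WT (24.6 ± 1.48, n = 3). The groups did not overlap, although the difference was small. The log2 fold change was -0.26 (SE 0.07), with an edgeR adjusted p of 0.0159, and the call was lost without PP2Ac-KO replicate 2 (-0.24, adjusted p = 0.0702) or WT replicate 3 (-0.20, adjusted p = 0.0647).

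Tnfsf13 and Tnfsf13b encode APRIL and BAFF, the ligands that sustain B cells and plasma cells. Tnfsf13 had 93, 88 and 107 counts in PP2Ac-KO and 121, 112 and 110 in WT, or 2.47 ± 0.249 and 2.55 ± 0.0977 CPM. The groups overlapped, and the log2 fold change was -0.04 (SE 0.14, edgeR adjusted p = 0.828). Tnfsf13b had 344, 245 and 276 counts in PP2Ac-KO and 444, 419 and 297 in WT, or 7.38 ± 0.748 and 8.55 ± 1.32 CPM. WT replicate 3, at 7.09 CPM, lay within the PP2Ac-KO range, and the log2 fold change was -0.21 (SE 0.13, edgeR adjusted p = 0.233).

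Tnfsf14 encodes LIGHT, a ligand of the herpesvirus entry mediator Tnfrsf14 and of the lymphotoxin beta receptor. It had 65, 55 and 59 counts in PP2Ac-KO and 67, 55 and 42 in WT. Scaled for depth, its level was 1.53, 1.67 and 1.41 CPM in PP2Ac-KO and 1.35, 1.27 and 1.002 CPM in WT. Every PP2Ac-KO library was above every WT library, as in 24.0% of all genes tested, but the margin was narrow and the test was not passed (log2 fold change 0.34, SE 0.18, edgeR adjusted p = 0.173). Of the 9 tested ligands, 6 had such complete separation upward, the 5 that rose and Tnfsf14.

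**Figure D2:**
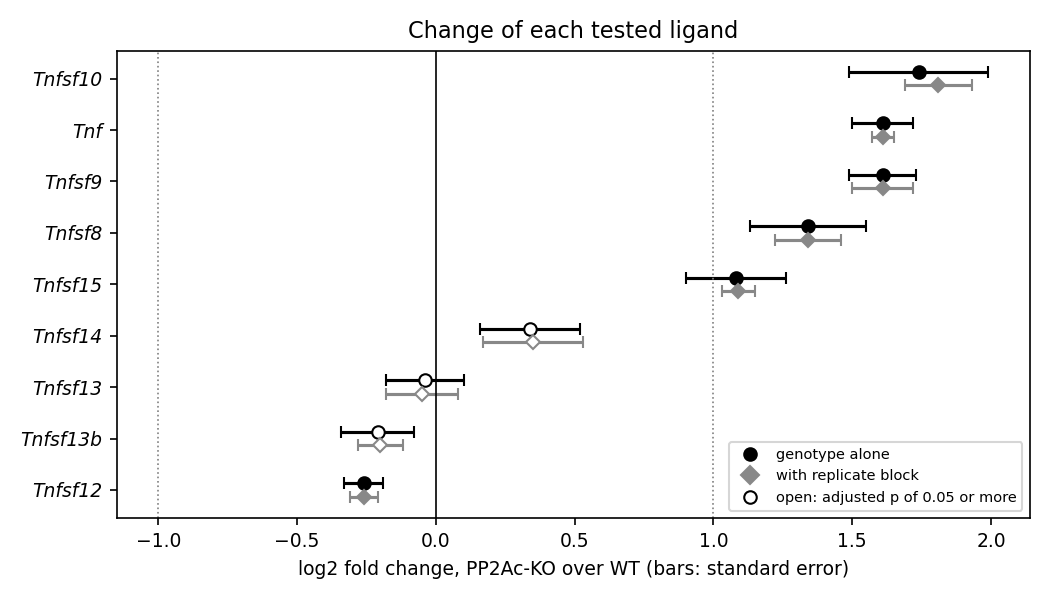
Log2 fold change of each of the 9 tested ligands in PP2Ac-KO over WT, with standard errors, from the fit on genotype alone (black circles) and the fit that adds the replicate number (grey diamonds), and dotted lines at -1 and 1. Tnfsf10, Tnf, Tnfsf9, Tnfsf8 and Tnfsf15 lie at 1.08 or more in both fits, Tnfsf12 lies at -0.26, and the open symbols of Tnfsf14, Tnfsf13 and Tnfsf13b did not pass the test.

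To compare ligands with each other, levels were divided by exonic length and are given as CPM per kilobase of exon. By that scale Tnf and Tnfsf10 were the main ligand transcripts of these macrophages in both genotypes. Tnf was at 139.6 ± 16.1 in PP2Ac-KO and 45.9 ± 5.92 in WT, and Tnfsf10 at 96.5 ± 10.8 and 28.8 ± 11.9 (mean ± SD, n = 3). In WT the ranges of these genes overlapped, so their order there is uncertain, whereas in PP2Ac-KO every Tnf value was above every Tnfsf10 value. Tnfsf10 and Tnfsf12 lay close together in WT replicate 3, at 18.9 and 17.3. Tnfsf12 was the next in WT at 16.2 ± 0.974, followed by Tnfsf15 at 5.24 ± 1.38, Tnfsf9 at 2.50 ± 0.181, Tnfsf13 at 1.56 ± 0.0597, Tnfsf13b at 1.25 ± 0.192, Tnfsf8 at 1.02 ± 0.288, Tnfsf14 at 0.653 ± 0.0980 and Ltb at 0.0358 ± 0.0381. Among these lower neighbours only Tnfsf13b and Tnfsf8 had overlapping ranges. In PP2Ac-KO Tnfsf12, at 13.6 ± 0.362, overlapped Tnfsf15, at 11.1 ± 2.07, and Tnfsf8, at 2.59 ± 0.555, stood above Tnfsf13 and Tnfsf13b, at 1.51 ± 0.152 and 1.08 ± 0.109, which it did not in WT. Tnfsf12 and Tnfsf13 share exonic bases with another gene, as given with their loci, so their levels per length are uncertain.

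The levels of the 10 ligands summed to 306.1, 254.3 and 263.2 CPM per kilobase in PP2Ac-KO and 122.3, 92.2 and 94.8 in WT. Tnf and Tnfsf10 together made up 86.2%, 85.4% and 86.3% of that sum in PP2Ac-KO and 75.7%, 70.0% and 70.5% in WT, with no overlap between the groups. The share of Tnf alone was 48.5% to 53.2% in PP2Ac-KO and 41.3% to 50.5% in WT, and these ranges overlapped, as did those of Tnfsf10 alone. The share of Tnfsf12 was 4.39%, 5.23% and 5.31% in PP2Ac-KO and 12.8%, 16.95% and 18.3% in WT. The groups did not overlap, and the same held for the lower shares of Tnfsf13 (0.438% to 0.640% in PP2Ac-KO and 1.22% to 1.71% in WT), Tnfsf13b (0.366% to 0.425% and 1.06% to 1.52%) and Tnfsf14 (0.271% to 0.355% and 0.572% to 0.742%). A share also falls when the other ligands in the sum rise: the level of Tnfsf12 itself fell only to 0.838 of WT, and that of Tnfsf14 was higher in every PP2Ac-KO library. The ratio of Tnf to Tnfsf12 per length was 11.6, 9.27 and 10.01 in PP2Ac-KO and 3.22, 2.51 and 2.76 in WT. With 3 libraries in each group an exact permutation test cannot give a p below 0.1, so shares and ratios are given without one.

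**Figure D3:**
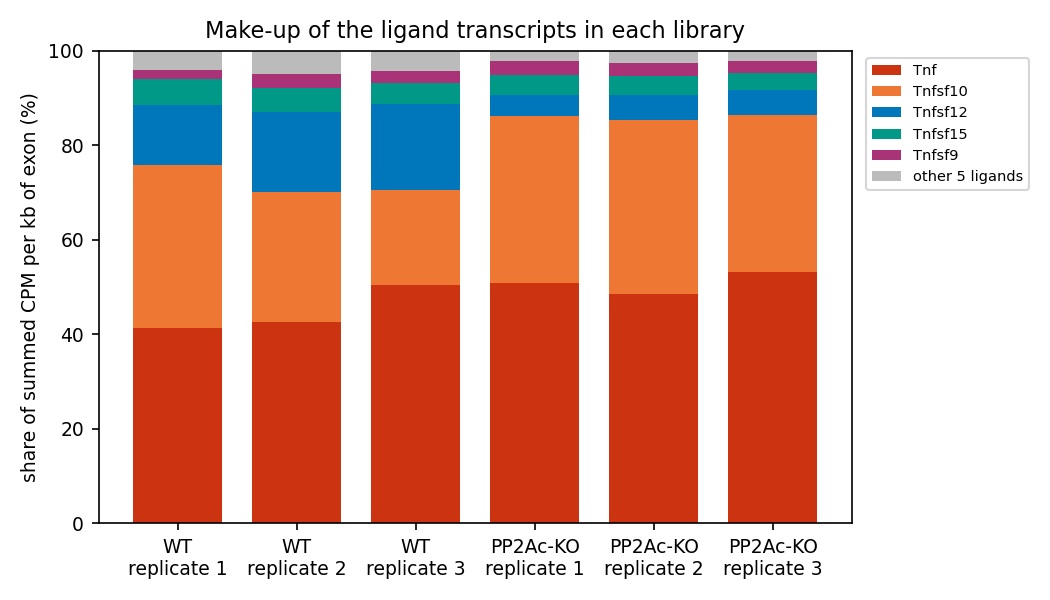
Share of each ligand in the summed level of the 10 ligands (CPM per kilobase of exon, in percent), 1 bar per library, WT on the left and PP2Ac-KO on the right. The Tnfsf12 band is 12.8% to 18.3% of the bar in WT and 4.39% to 5.31% in PP2Ac-KO, and Tnf with Tnfsf10 fills 85.4% or more of each PP2Ac-KO bar.

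Several of the ligand genes lie side by side (GENCODE M21, GRCm38). Tnf, at chr17:35199381-35202007 on the minus strand, lies in the major histocompatibility complex between Ltb (chr17:35194439-35196320, plus strand, 3060 bases away) and Lta, the gene of lymphotoxin alpha (1157 bases away). Lta had 3, 2 and 6 counts in PP2Ac-KO and 2, 0 and 2 in WT and was not tested, so of the 3 clustered genes Tnf alone was well expressed. Lst1, 5999 bases beyond Ltb, was higher in PP2Ac-KO (log2 fold change 0.95, SE 0.07, edgeR adjusted p = 5.4e-05).

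A second group on chromosome 17 holds Tnfsf9 (chr17:57105325-57107757, plus strand), Cd70, with 1 count over all libraries, and Tnfsf14 (chr17:57189492-57194177, minus strand). Beyond Tnfsf14, 9792 bases away, lies C3, the gene of complement component 3, which rose by 2.02 on the log2 scale (SE 0.27, edgeR adjusted p = 0.00049). On its other side the gene next to Tnfsf14 was Cd70, 39714 bases away, with Tnfsf9 beyond that. Tnfsf9 and C3 were both higher, while the change of Tnfsf14 itself did not pass the test.

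On chromosome 4, Tnfsf15 (chr4:63727084-63745113) and Tnfsf8 (chr4:63831308-63861347), both on the minus strand and 86194 bases apart, rose together. The next gene, Tnc, which encodes the matrix protein tenascin C, fell from 820, 565 and 448 counts in WT to 267, 144 and 148 in PP2Ac-KO (log2 fold change -1.498, SE 0.21, edgeR adjusted p = 0.00073). Tnfsf10 (chr3:27317028-27342427, plus strand) and Tnfsf13b (chr8:10006467-10039072, plus strand) have no other ligand of the family beside them. Nceh1, next to Tnfsf10, had a log2 fold change of -0.08 (edgeR adjusted p = 0.407).

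Tnfsf12 (chr11:69686250-69695849) and Tnfsf13 (chr11:69682846-69685784), both on the minus strand, are 465 bases apart, and the annotated read-through gene Tnfsfm13 spans both. Tnfsf12 shares 731 of its 1515 exonic bases (48.3%) with Tnfsfm13, and Tnfsf13 shares 983 of 1637 (60.0%) with it and 221 (13.5%) with the antisense gene Tnfsf13os. How reads on shared bases were assigned can therefore set both levels. Polr2a, beside Tnfsf12, had a log2 fold change of -0.21 (edgeR adjusted p = 0.126, or 0.00391 in the fit with a replicate block). Tnfsfm13 had 46 to 64 counts in PP2Ac-KO and 56 to 85 in WT (log2 fold change -0.18, SE 0.19, edgeR adjusted p = 0.502). With the 3 genes summed into 1 feature the log2 fold change was -0.23 (SE 0.06, edgeR adjusted p = 0.0202), with 1004, 799 and 1055 counts in PP2Ac-KO and 1385, 1207 and 1267 in WT.

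**Figure D4:**
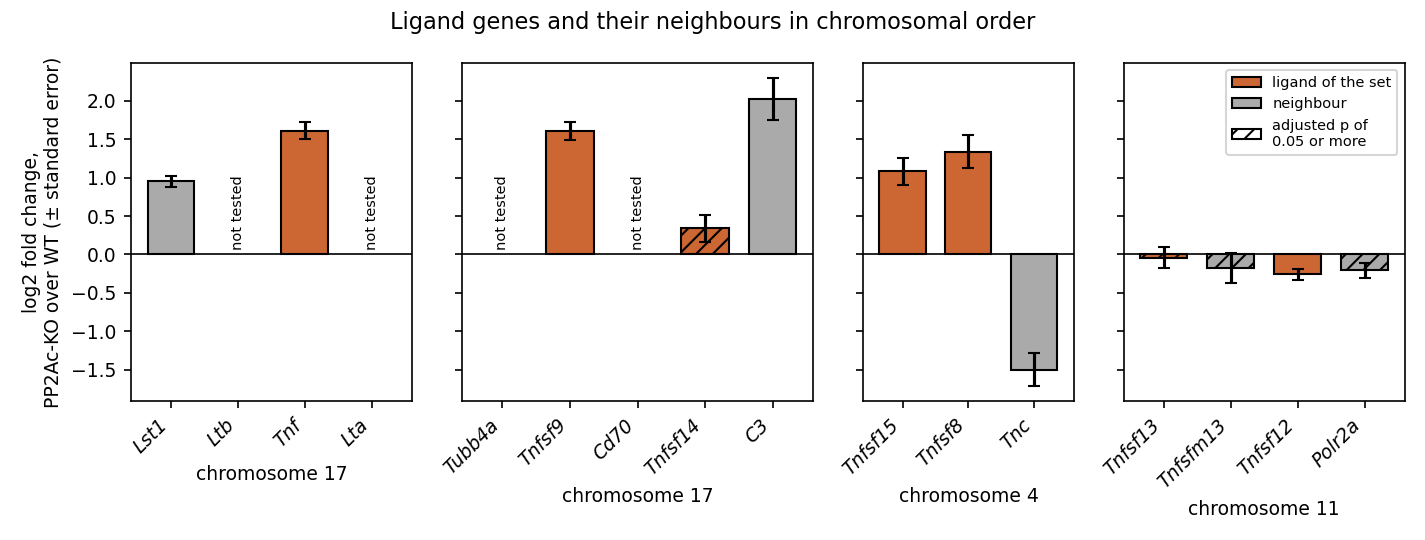
Log2 fold change in PP2Ac-KO over WT, with standard errors, of the clustered ligand genes (orange) and the genes beside them (grey), in their order along 2 stretches of chromosome 17, 1 of chromosome 4 and 1 of chromosome 11. Hatched bars did not pass the test on genotype alone. Tnf, Tnfsf9, Tnfsf15 and Tnfsf8 are above 1, Tnc is at -1.498 next to Tnfsf8, and Tnfsf12 is the only gene of the chromosome 11 group called in that fit.

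Of 8 other ligands of the superfamily listed, only Tnfsf4 passed the filter on low counts. Tnfsf4 encodes OX40L, a ligand that costimulates T cells, and rose from 22, 16 and 10 counts in WT to 81, 45 and 53 in PP2Ac-KO (log2 fold change 2.09, SE 0.28, edgeR adjusted p = 0.000529). The groups did not overlap. Cd40lg had no count in any library, and Fasl, Cd70, Tnfsf11, Eda, Tnfsf18 and Lta had at most 11 counts in any library.

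Of the 15 receptors of the ligands listed, 12 were tested, 3 were higher and 1 was lower, beside 18.1% higher and 19.0% lower among all genes tested. The median over the 12 was a log2 fold change of 0.04. Tnfrsf12a, the receptor of the ligand that fell, rose by 0.76 on the log2 scale (SE 0.12, edgeR adjusted p = 0.00126), Tnfrsf1a, the main receptor for soluble TNF, by 0.58 (SE 0.07, adjusted p = 0.000452) and Tnfrsf14 by 0.54 (SE 0.09, adjusted p = 0.00161). Tnfrsf11b, which encodes the decoy receptor osteoprotegerin that binds TRAIL, fell from 101, 50 and 39 counts in WT to 19, 17 and 10 in PP2Ac-KO (log2 fold change -1.80, SE 0.38, edgeR adjusted p = 0.00526). Tnfrsf1b, the other TNF receptor, had a log2 fold change of 0.05 (adjusted p = 0.605). Tnfrsf25, the receptor of Tnfsf15, and Tnfrsf13c and Tnfrsf17, the B cell receptors of BAFF and APRIL, were too low to test. The difference between ligands and receptors was not itself tested.

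Of 9 tested genes for the release of TNF ligands from the cell surface, 4 were higher and 2 lower, beside the same 18.1% and 19.0% of all genes. Their median was 0.05 on the log2 scale, which also holds for the changes that follow. Rhbdf2, which encodes iRhom2, the partner that brings the TNF-cleaving protease ADAM17 to the cell surface, rose by 0.88 (SE 0.08, edgeR adjusted p = 0.000116), and Sppl2a, an intramembrane protease that cuts the TNF stub, by 0.54 (SE 0.10, adjusted p = 0.00299). Timp3, the inhibitor of ADAM17, fell by 1.499 (SE 0.22, adjusted p = 0.0008), and Rhbdf1 fell by 0.53 (SE 0.14, adjusted p = 0.016).

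Of 11 tested genes for proteins that set the decay or translation of TNF mRNA and similar mRNAs, 6 were higher (18.1% of all genes) and 2 lower (19.0% of all genes). Their median was 0.16 on the log2 scale. Zfp36, which encodes tristetraprolin, the protein that destabilizes Tnf mRNA, rose by 0.86 (SE 0.06, edgeR adjusted p = 5.51e-05). Zc3h12a, which encodes the RNase Regnase-1, rose by 0.67 (SE 0.07, adjusted p = 0.000176), Mapkapk2, a kinase that inactivates tristetraprolin, by 0.53 (SE 0.07, adjusted p = 0.000542) and Zfp36l1 by 0.40 (SE 0.08, adjusted p = 0.00333).

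All 10 listed genes of NF-κB subunits and inhibitors were higher, as were 18.1% of all genes, and their median was 0.79 on the log2 scale. The inhibitors led: Nfkbie rose by 1.62 (SE 0.12, edgeR adjusted p = 5.4e-05), Nfkbia by 1.49 (SE 0.07, adjusted p = 1.48e-05), Tnfaip3, which encodes the ubiquitin editor A20, by 1.31 (SE 0.10, adjusted p = 6.16e-05) and Nfkbib by 0.83 (SE 0.06, adjusted p = 5.9e-05).

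**Figure D5:**
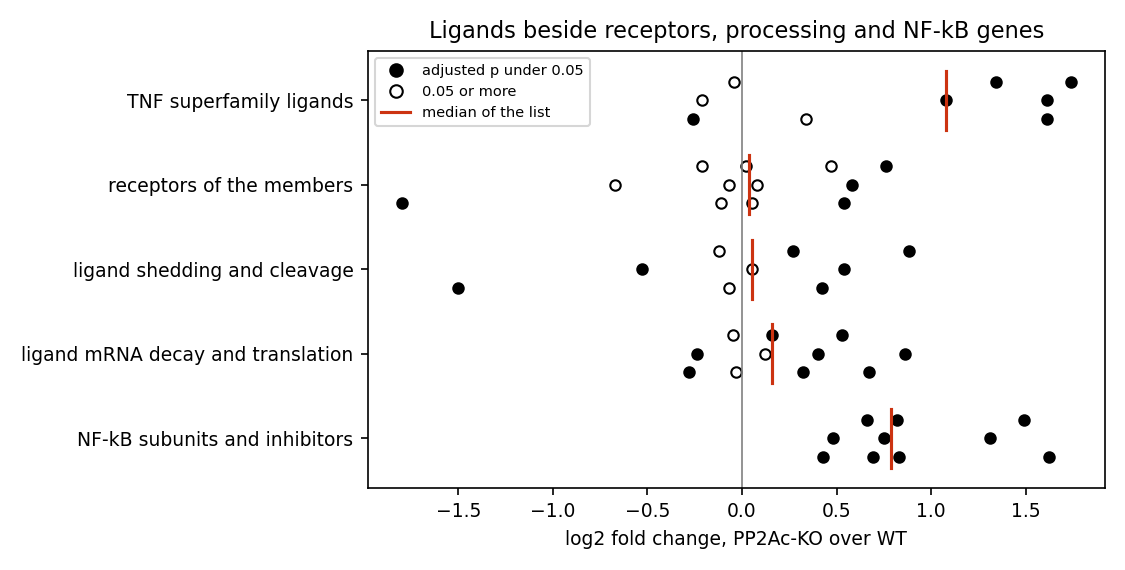
Log2 fold change in PP2Ac-KO over WT of the tested ligands, of their receptors, and of genes for shedding, mRNA decay and NF-κB, 1 point per gene, filled where the adjusted p was under 0.05, with a red line at the median of each list. The medians are 1.08 for the ligands, 0.04 for the receptors, 0.05 for shedding, 0.16 for mRNA decay and 0.79 for NF-κB.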

How the data were processed

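The authors deposited a table of raw read counts per gene, made from poly(A)-selected, strand-directional, paired-end libraries. The submitters' processing notes name fastp 0.20.0, STAR 2.7.1a, HTSeq 0.11.2, kallisto 0.46.1, edgeR 3.34.0, limma 3.48.3 and the builds GRCm38 and mm10, without a role or order, and the strand setting of counting is not given in the sources used here. Genes with enough counts were kept by filterByExpr (minimum count 10, minimum total 15), which left 13680 of 55453 genes, libraries were scaled by TMM, and genotype was tested with edgeR 4.0.16 in R 4.3.3. The fit was checked on simulated counts with known changes. These were drawn with the same spread for every gene, so the check does not cover the uneven spread between the real libraries. SE is the absolute log2 fold change divided by the square root of F. The members and gene lists were chosen with earlier results of these data known. All members were named. Of each other list, the 4 called genes with the largest change were named, with the targeted gene, genes beside or overlapping a member, and a few list members added after their values were seen. Replicate numbers, taken from the labels, formed the replicate block, but the labels do not say that same-numbered libraries were paired. The deviations of same-numbered libraries from their group means correlated at 0.289, 0.148 and 0.337 over 13680 genes. Libraries of different numbers were not compared in this way, so the values do not establish a pairing. No batch is given in the labels. No pair of replicates agreed within sampling noise. The depth of a count bears on counting error only and not on the spread between libraries, and reads were counted without molecular identifiers. The alternatives tried were upper-quartile and RLE scaling, a stricter filter or none, a replicate block, each library left out, DESeq2 1.42.0, limma-voom 3.58.1 and, chosen after seeing the data, overlapping genes summed.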

Additional observations from a re-analysis of the deposited data

How the results depend on the processing

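The 5 higher ligands kept their direction and call under every alternative run. The number of ligands called higher was 5 to 6, the added one being Ltb, in the fit without a filter and in some fits with a library left out. In the latter Ltb, with at most 5 counts in any WT library, passed the filter only through the PP2Ac-KO libraries. Its calls therefore add no support. The number called lower was 0 to 1 over the libraries left out, with 0 without PP2Ac-KO replicate 2 and without WT replicate 3, where Tnfsf12 had adjusted p-values of 0.0702 and 0.0647 by edgeR. Its log2 fold change was -0.28 to -0.20 with a library left out. Tnfsf13 ranged from -0.10 to 0.03 with a library left out and turned positive without PP2Ac-KO replicate 1 (edgeR adjusted p = 0.892). The replicate block left Tnf at a log2 fold change of 1.61 and changed no call among the ligands. Beyond them it added Tnfrsf23, as lower (adjusted p = 0.00594), to the receptors and Rc3h2, as higher (adjusted p = 0.0292), to the mRNA decay genes. It also moved the macrophage markers from 4 to 7 called higher and the fibroblast markers from 6 to 7 called lower, and made calls of the neighbours Polr2a (0.00391) and Abhd13 (0.0489). The block raised calls in general: over all 13680 genes tested, those called higher went from 2470 to 3343 and those called lower from 2604 to 3615. The counts of calls in the other lists did not change. The median of all genes was -0.02 with TMM and -0.09 with upper-quartile scaling, a shift of under 0.1.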
